A study of Mus musculus with 6 samples.

Results

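The genes described are B2m, H2-K1, H2-D1, H2-Q7, H2-T23, H2-M3 and Nlrc5, the chains of mouse MHC class I molecules and the main activator of their genes. They are 7 of 23981 genes named by the platform annotation of this array, and every probe set annotated to them was taken, 8 of 41345 in all. B2m, H2-K1, H2-T23, H2-M3 and Nlrc5 each have 1 probe set of their own. H2-D1 is read only by a probe set that also names H2-Q2. H2-Q7 is read by a brighter and a dimmer probe set, both of which also name H2-Q8 and H2-Q9. The values of these 3 shared probe sets cannot be assigned to a single gene.

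MHC class I molecules carry peptides from inside the cell to its surface, where CD8 T cells and NK cells read them. Each molecule is a heavy chain, encoded by an H2 gene, bound to the light chain beta-2 microglobulin, which B2m encodes and without which most heavy chains do not reach the surface. NLRC5 has no DNA-binding activity of the usual kind. It is recruited to class I and B2m promoters by factors bound to their X and Y boxes, and interferons raise both NLRC5 and its targets. B16 melanoma cells are known for low surface class I that interferon can raise. STAT2 carries the signal of type I interferon to the nucleus.

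The samples were B16-F1 melanoma tumours, 3 grown in Stat2 KO hosts beside 3 in WT hosts, with 1 array for each tumour. All hosts were of the C57BL6 background, all received the same B16-F1 cells, and all tumours were taken at day 20. Only the host's genotype differs by the labels, which do not describe the implanted cells as lacking Stat2, so a tumour mixes cells of one melanoma line with host cells that differ in genotype. Whether every tumour had a mouse to itself is not stated, and the p-values cover only the spread among these 6 samples. In such bulk RNA, fewer cells of a type and less RNA per cell cannot be told apart. Values are log2 RMA expression values, in which a difference of 1 is a doubling.

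As a check of the labels, Stat2 read 6.45, 6.48 and 6.33 in Stat2 KO hosts, against 6.79, 6.70 and 6.70 in WT hosts. Its limma adjusted p was 0.732. The Stat2 means, 6.42 and 6.73, lay near 6.72, the 95th percentile of 1108 olfactory receptor probe sets, genes that tumours are not known to use. The check is therefore limited by a level near background. The 10 melanocyte and melanoma markers were bright in both groups, with means from 7.87 for Gpr143 to 13.17 for the melanin enzyme gene Dct in Stat2 KO hosts, against 8.08 to 13.22 for the same genes in WT hosts. Array medians lay between 6.08 and 6.22 in Stat2 KO hosts, against 6.06 to 6.13 in WT hosts. Over all 41345 probe sets, 0 had a limma adjusted p under 0.05, and 2766, or 6.69%, had an unadjusted limma p under 0.05, of which the lower ones made up 3.00% of all probe sets and the higher ones 3.69%. The median difference over all probe sets, Stat2 KO host minus WT host, was 0.026.

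The promoters are shown first because the class I genes and B2m share a layout that NLRC5 and interferon factors are known to use. RefSeq promoter windows of GRCm38.p6, from 250 bases before to 50 bases after the annotated start, were matched by symbol for 6 of the 7 genes, all but Nlrc5. The windows of B2m and H2-K1 are given whole, with capitals marking the IRF core, the kappa B element where there is one, and an X2 core paired with a reversed Y box.
B2m, chr2:122147437-122147736, plus strand: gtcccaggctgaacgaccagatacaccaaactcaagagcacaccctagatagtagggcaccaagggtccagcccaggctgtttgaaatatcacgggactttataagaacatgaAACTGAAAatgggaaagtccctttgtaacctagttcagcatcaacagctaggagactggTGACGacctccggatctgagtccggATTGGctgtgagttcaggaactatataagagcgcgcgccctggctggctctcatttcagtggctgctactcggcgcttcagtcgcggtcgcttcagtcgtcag
H2-K1, chr17:34000298-34000597, minus strand: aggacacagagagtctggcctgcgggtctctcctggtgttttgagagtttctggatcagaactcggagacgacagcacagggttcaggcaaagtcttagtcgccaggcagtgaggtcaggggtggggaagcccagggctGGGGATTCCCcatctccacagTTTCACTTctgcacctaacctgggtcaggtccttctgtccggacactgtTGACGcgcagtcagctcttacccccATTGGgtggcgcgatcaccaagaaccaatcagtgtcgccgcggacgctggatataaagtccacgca

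The X2 core is TGACG, to which CREB and ATF factors bind, and the Y box is CCAAT, the site of NF-Y, which reads ATTGG when reversed. A pair was scored where 18 to 22 bases lie between TGACG and ATTGG, on either strand, a spacing chosen after these windows had been read. Of the 6 windows, 5 hold the pair, against 0.289% of the 27025 RefSeq windows, and H2-T23 does not. The stretches of the 5 windows are set side by side to show the shared frame, with the X2 core and the reversed Y box in capitals.
B2m, chr2:122147609-122147638: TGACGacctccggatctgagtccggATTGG
H2-K1, chr17:34000359-34000388: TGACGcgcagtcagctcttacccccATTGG
H2-D1, chr17:35262993-35263022: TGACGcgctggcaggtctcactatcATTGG
H2-Q7, chr17:35439091-35439119: TGACGtgtaacagttctcacccctATTGG
H2-M3, chr17:37270188-37270217: TGACGcttctccaattcccattctaATTGG
The gap is 19 bases in H2-Q7 and 20 in the other windows. The IRF core AANNGAAA, bound by interferon regulatory factors, was found on either strand in 6 of 6 windows, against 24.2% of all windows. The kappa B element GGGGATTCCC, a site of NF-kappa B factors whose letters were taken from the H2-K1 window itself, stands in the windows of H2-K1, H2-D1 and H2-Q7, against 0.104% of all windows. The GAS motif TTCNNNGAA, a site of activated STAT dimers, was found in the window of H2-M3 and in 8.47% of all windows. The X2 core alone is in 21.0% and the Y box alone in 37.9% of all windows, and both count again in the pair. A match is a string of letters in the reference genome and no measure of binding.

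**Figure D1:**
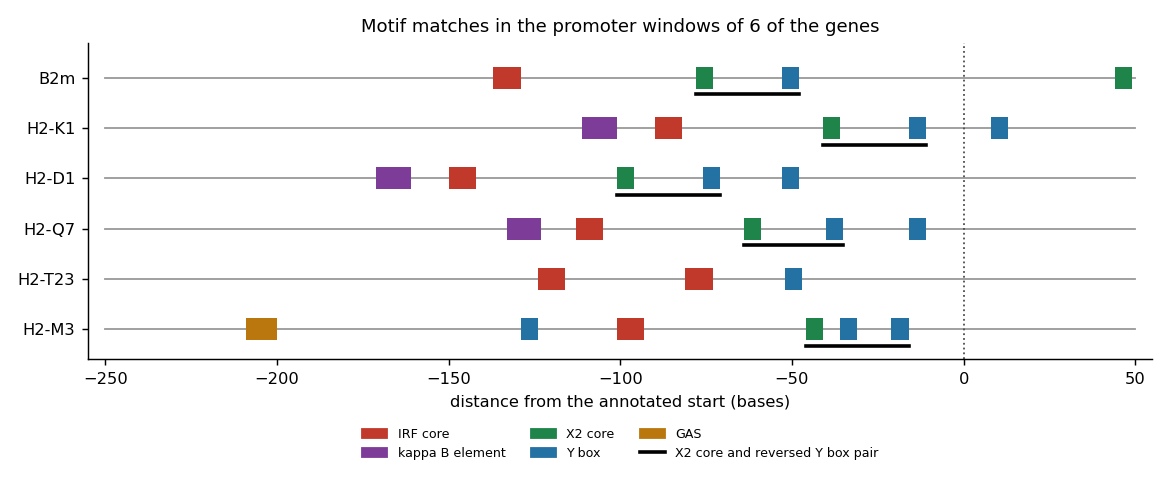
Positions of motif matches in the RefSeq promoter windows of 6 of the genes, with distance from the annotated start in bases on the x axis, 1 line per gene, coloured boxes for matches on either strand and a black bar under each X2 core and reversed Y box pair. The pair is in 5 of the 6 windows, and H2-T23 has a Y box without it.

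The largest differences among the 8 probe sets were those of B2m, Nlrc5 and H2-K1, from -0.78 to -0.73. B2m, the light chain, read 12.26, 11.90 and 12.04 in Stat2 KO hosts, against 12.77, 12.87 and 12.88 in WT hosts. The groups did not overlap, with 0.51 between their nearest values. The difference was -0.78 (SE 0.13, 95% interval -1.09 to -0.47), or 41.7% lower in Stat2 KO hosts. Its unadjusted limma p was 0.00037 and its limma adjusted p over all probe sets 0.732, so it did not pass the threshold of 0.05.

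Nlrc5, the transactivator of class I genes, read 5.79, 5.82 and 5.67 in Stat2 KO hosts, against 6.54, 6.48 and 6.47 in WT hosts. The groups were apart by 0.65, more than for any other of the 8 probe sets, and the tumours of each host lay within 0.154 of each other in Stat2 KO hosts, against 0.072 in WT hosts. The difference was -0.74 (SE 0.13, 95% interval -1.03 to -0.45), or 40.0% lower in Stat2 KO hosts, with an unadjusted limma p of 0.00035 and a limma adjusted p of 0.732. Of 1108 olfactory receptor probe sets, genes that tumours are not known to use, 17.6% read as high as the Nlrc5 probe set or higher, so a level above background was not shown for Nlrc5, and its true difference may be larger or smaller.

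Of the classical heavy chains, H2-K1 differed by nearly as much as B2m and the probe set of H2-D1 by less. H2-K1, the K chain that presents peptides to CD8 T cells, read 8.85, 8.66 and 8.35 in Stat2 KO hosts, against 9.28, 9.33 and 9.44 in WT hosts. The groups did not overlap, and Stat2 KO tumours spanned 0.50 against 0.16 for WT tumours. The difference was -0.73 (SE 0.15, 95% interval -1.08 to -0.38), or 39.7% lower in Stat2 KO hosts, with an unadjusted limma p of 0.0013 and a limma adjusted p of 0.732. H2-D1, the D chain, was read by the probe set shared with H2-Q2 at 6.06, 6.35 and 6.20 in Stat2 KO hosts, against 6.24, 6.44 and 6.47 in WT hosts. These groups overlapped, because Stat2 KO replicate 2 lay above WT replicate 1. The difference was -0.18 (SE 0.14, 95% interval -0.51 to 0.15, limma adjusted p = 0.789), or -0.11 with Stat2 KO replicate 1 left out, and 12.8% of olfactory receptor probe sets read as high or higher. H2-D1 therefore had no measurement of its own, and this value does not show how H2-D1 itself behaved.

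H2-Q7 encodes Qa-2, a non-classical heavy chain anchored in the membrane by a lipid, together with its near copy H2-Q9. Its brighter probe set read 8.50, 8.67 and 8.64 in Stat2 KO hosts, against 9.21, 9.18 and 8.99 in WT hosts. The groups did not overlap, and the difference was -0.52 (SE 0.12, 95% interval -0.81 to -0.24), or 30.4% lower in Stat2 KO hosts, with an unadjusted limma p of 0.0027 and a limma adjusted p of 0.732. The dimmer probe set of the same 3 genes read 5.84, 5.84 and 5.67 in Stat2 KO hosts, against 5.96, 6.06 and 5.36 in WT hosts. WT replicate 3 was the lowest of the 6 tumours there, the difference was -0.011 (SE 0.20, 95% interval -0.47 to 0.45, limma adjusted p = 0.992), and 29.5% of olfactory receptor probe sets read as high or higher. Without WT replicate 3 the dimmer one differed by -0.23, and without WT replicate 2 by 0.12.

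The other non-classical chains had groups that overlapped. H2-T23 encodes Qa-1, which presents leader peptides of other class I chains to the CD94/NKG2A receptor of NK cells. It read 6.08, 5.46 and 5.66 in Stat2 KO hosts, against 6.12, 6.07 and 5.74 in WT hosts, with Stat2 KO replicate 1 among the WT values. Its difference was -0.24 (SE 0.20, 95% interval -0.70 to 0.21, limma adjusted p = 0.790), and was -0.11 without Stat2 KO replicate 2, or -0.42 when replicate 1 of that host was left out. H2-M3, which presents peptides that begin with formylated methionine, read 6.14, 6.41 and 6.13 in Stat2 KO hosts, against 5.91, 6.12 and 6.23 in WT hosts. It was the only one of the 8 probe sets with a higher mean in Stat2 KO hosts, by 0.14 (SE 0.15, 95% interval -0.21 to 0.48, limma adjusted p = 0.835), and was at 0.048 with Stat2 KO replicate 2 left out, or 0.052 with WT replicate 1 left out. Of the olfactory receptor probe sets, 27.9% read as high as H2-T23 or higher, and 16.2% as high as H2-M3 or higher.

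**Figure D2:**
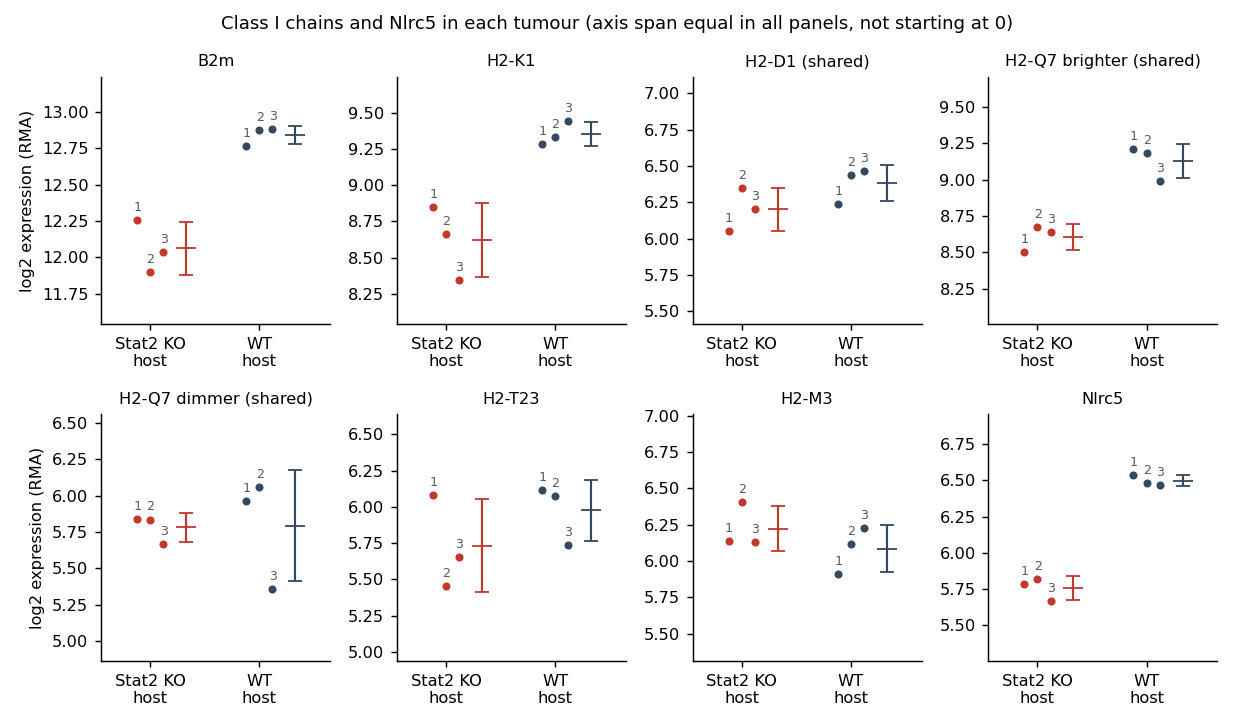
The log2 expression value of each tumour for the 8 probe sets, with Stat2 KO hosts left and WT hosts right, digits giving the replicate, and horizontal bars with whiskers giving mean and SD (n = 3 each). The y axes cover equal spans and do not start at 0. The groups are apart for B2m, H2-K1, the brighter H2-Q7 probe set and Nlrc5 and overlap in the other panels.

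Counted together, 7 of the 8 probe sets had a lower mean in Stat2 KO hosts, where 45.4% of all probe sets did. For 4 of the 8 every Stat2 KO value was below every WT value, against 4.98% of all probe sets, and the same 4 had an unadjusted limma p under 0.05 with a lower level, against 3.00%. None of the 8 had a limma adjusted p under 0.05, where 0.00% of all probe sets had. The median difference of the 8 was -0.38. An exact permutation of the 6 arrays gave p = 0.1 for each of the 4, the smallest value that 3 against 3 allows, and 0.2 to 1 for the others. The 4 with separate groups were B2m, H2-K1, the brighter H2-Q7 probe set and Nlrc5, and that count of unadjusted p was 4 without any single array.

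The tumours ranked differently from gene to gene. Among Stat2 KO tumours, replicate 1 was highest for B2m, H2-K1 and H2-T23 and lowest for the brighter H2-Q7 and the H2-D1 probe sets. Replicate 3 was lowest for H2-K1, H2-M3, Nlrc5 and the dimmer H2-Q7 probe set, and replicate 2 for B2m and H2-T23. Among WT tumours, replicate 3 was highest for B2m, H2-K1, H2-M3 and the H2-D1 probe set and lowest for Nlrc5, H2-T23 and both H2-Q7 probe sets.

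The remaining H2 class I genes were read by 25 further probe sets, which name 25 of the 29 genes listed, while H2-Q2 and H2-Q9 are named only on the shared probe sets of H2-D1 and H2-Q7. Of these, 11 had a lower and 14 a higher mean in Stat2 KO hosts, with a median difference of 0.057 that was -0.017 after median centring and -0.047 with Stat2 KO replicate 2 left out. Every Stat2 KO value was below every WT value for 4 of the 25 probe sets, and above for 2, where 4.98% and 7.30% of all probe sets did. None of the 25 had a limma adjusted p under 0.05. A larger part of the brighter than of the dimmer probe sets was lower, a contrast that was not tested. The 7 with a mean above the median probe set had 5 lower and 2 higher, with a median difference of -0.43. The 18 at or below it had 6 lower and 12 higher, with a median difference of 0.10. H2-K2, the brightest of the 25, differed by only -0.012.

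H2-Q4 has 2 probe sets. The brighter read 6.94, 7.12 and 6.50 in Stat2 KO hosts, against 7.69, 7.52 and 7.16 in WT hosts, a difference of -0.61 (SE 0.20, limma adjusted p = 0.732). The dimmer differed by -0.034. The probe set shared by H2-T22 and H2-T9, non-classical chains read by some gamma-delta T cells, had 7.33, 6.93 and 7.22 in Stat2 KO hosts, against 7.84, 7.59 and 7.85 in WT hosts, a difference of -0.60 (SE 0.15). One probe set of H2-Q10, which in mice encodes a secreted chain made mainly by the liver, had 5.62, 5.73 and 6.37 in Stat2 KO hosts, against 6.83, 6.79 and 6.68 in WT hosts, a difference of -0.86 (SE 0.21). The other H2-Q10 probe set differed by 0.18 (SE 0.15), with the opposite sign. H2-K2, a transcribed pseudogene related to H2-K1, read 7.71, 8.29 and 8.18 in Stat2 KO hosts, against 7.68, 8.25 and 8.28 in WT hosts, with a difference of -0.012 (SE 0.22). H2-Bl differed by 0.26 (SE 0.17). One probe set of H2-Q5 also had every Stat2 KO value below every WT value, at -0.40 (SE 0.14), and the other H2-Q5 probe set differed by -0.24 (SE 0.21). H2-M10.6 and H2-M10.2 were the probe sets with every Stat2 KO value above every WT value, at 0.54 (SE 0.23) and 0.43 (SE 0.17). The separate H2-Q5, H2-M10.6 and H2-M10.2 probe sets had mean levels of 5.33, 5.50 and 5.54, below the median probe set at 6.11. H2-T22, H2-T9, H2-Q5, H2-Q10 and H2-K2 were chosen after their values were seen. These genes resemble each other in sequence, and a probe set naming 1 of them may still take up transcripts of another.

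**Figure D3:**
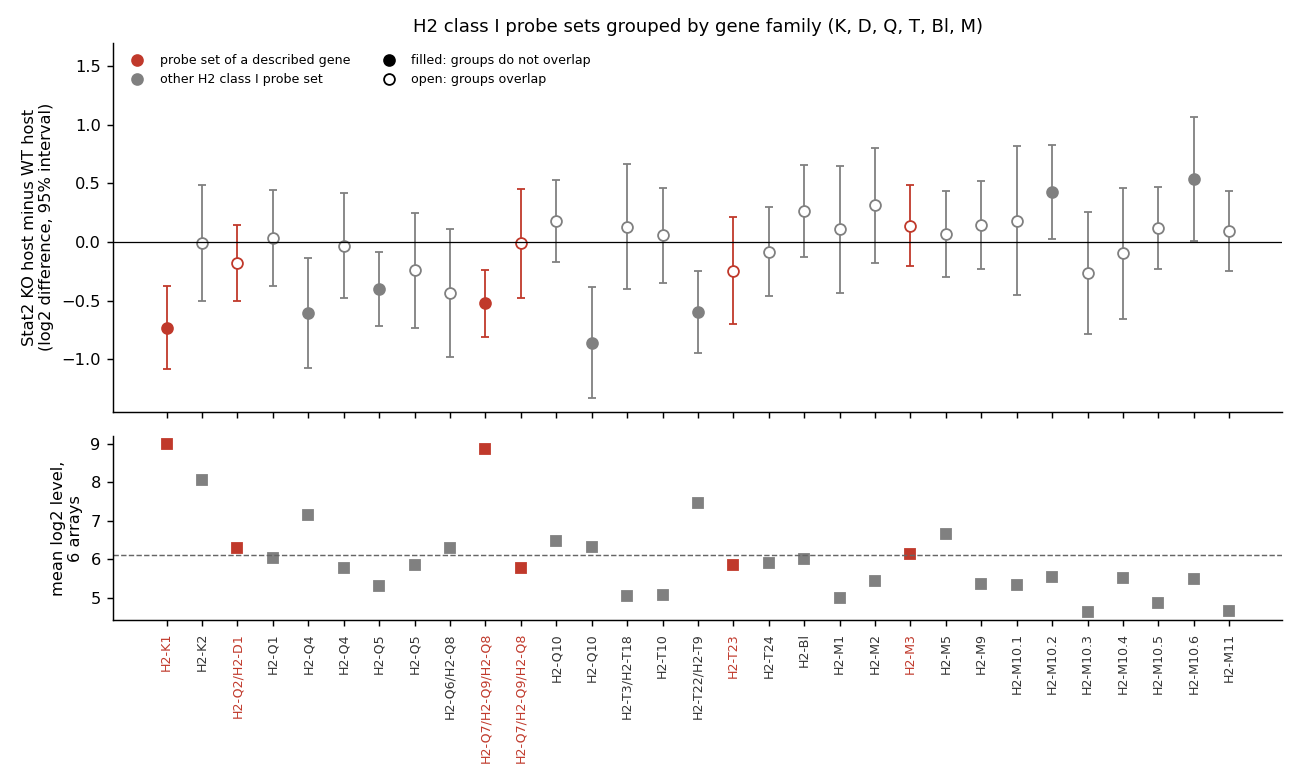
Top, the difference Stat2 KO host minus WT host (log2) with its 95% interval for each H2 class I probe set, in red for the genes described and in grey for the others, filled where the groups do not overlap. Bottom, the mean log2 level over the 6 arrays, with the median probe set as a dashed line. H2-K1, the brighter H2-Q7 and H2-Q4 probe sets and the H2-T22/H2-T9 probe set lie between -0.73 and -0.52, and the M family lies between -0.27 for H2-M10.3 and 0.54 for H2-M10.6.

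Class I-like genes outside the MHC whose chains mostly pair with B2m were read for comparison with the light chain. Of 7 genes, 2 had a lower and 5 a higher mean in Stat2 KO hosts, with a median difference of 0.035 that was -0.040 after median centring and -0.13 with WT replicate 3 left out, and none passed. Mr1, which presents vitamin B metabolites to MAIT cells, differed by -0.18 (SE 0.16), the lipid-presenting Cd1d1 by 0.27 (SE 0.21), its near copy Cd1d2 by 0.35 (SE 0.17) and Procr, the protein C receptor, by 0.14 (SE 0.15).

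Genes that supply peptides to class I were lower in mean in Stat2 KO hosts more often than not, and none had a limma adjusted p under 0.05. Of 8 transport and loading genes 8 were lower, with a median of -0.26, with 6 lower after cyclic loess normalization and 5 lower without Stat2 KO replicate 2. The brightest of them, Canx, Pdia3 and Calr, differed by only -0.0066, -0.029 and -0.082, with groups that overlapped. Leaving out WT replicate 2 gave a median of -0.17. Every Stat2 KO value was below every WT value for 4 of the 8, Erap1, Tap1, Tap2 and Tapbp, against 4.98% of all probe sets, of which 45.4% had a lower mean. Erap1, the peptidase that trims peptides in the endoplasmic reticulum, read 6.71, 6.39 and 6.63 in Stat2 KO hosts, against 7.27, 6.92 and 7.38 in WT hosts, a difference of -0.62 (SE 0.17). The peptide transporter subunits Tap1 and Tap2 differed by -0.46 (SE 0.14) and -0.37 (SE 0.16), and tapasin, encoded by Tapbp, by -0.29 (SE 0.13). Of 5 immunoproteasome genes 4 were lower, with a median of -0.34. The median was -0.52 with WT replicate 2 left out and -0.27 with WT replicate 3 left out. Psmb9, a catalytic subunit, differed by -0.32 (SE 0.21), with groups that overlapped. The catalytic subunits Psmb8 and Psmb10 differed by -0.69 (SE 0.17) and -0.61 (SE 0.14), the proteasome activator Psme1 by -0.34 (SE 0.13) and its partner Psme2 by 0.29 (SE 0.17). The limma adjusted p was 0.732 for Erap1, Tap1, Tap2, Tapbp, Psmb8, Psmb10 and Psme1, and 0.748 for Psme2.

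None of the measured factors that carry NLRC5 to promoters had a difference as large as that of Nlrc5, a contrast that was not tested. Of 7 measured genes for RFX, NF-Y and CREB subunits 6 had a lower mean in Stat2 KO hosts, where 45.4% of all probe sets did, with a median of -0.12. The median was -0.045 after quantile normalization, -0.046 after cyclic loess, -0.19 after median centring and -0.064 with Stat2 KO replicate 2 left out. The groups overlapped for all 7, where 4.98% of all probe sets were separate and lower and 7.30% separate and higher. Nfyb, an NF-Y subunit, differed by -0.30 (SE 0.16), Rfxank, an RFX subunit, by 0.16 (SE 0.14), Creb1 by -0.14 (SE 0.14) and the NF-Y subunit Nfya by -0.12 (SE 0.15). Of 12 measured genes of interferon signalling 11 were lower, against 45.4% of all probe sets. Their median was -0.18, or -0.11 after cyclic loess and -0.087 with Stat2 KO replicate 2 left out. Every Stat2 KO value was below every WT value for 3 of the 12, against 4.98% of all probe sets. Stat2, the gene knocked out in the hosts, is counted among the 12, the 11 and the 3, so these counts are not free of the design. Ifngr1, the ligand-binding chain of the interferon gamma receptor, read 8.21, 8.05 and 7.86 in Stat2 KO hosts, against 8.48, 8.55 and 8.27 in WT hosts, a difference of -0.39 (SE 0.14). Irf9, the partner of STAT2, differed by -0.32 (SE 0.17), Stat2 itself by -0.31 (SE 0.12) and the kinase gene Jak1 by -0.24 (SE 0.15). The limma adjusted p was 0.732 for Ifngr1 and Stat2 and higher for the others.

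The direction of genes for receptors that read class I depended on the scaling. Of 7 measured, 3 were lower and 4 higher in Stat2 KO hosts, with a median of 0.017 that was -0.036, -0.058 and -0.058 after quantile normalization, median centring and cyclic loess. The number lower was 5, 5 and 6 of 7 under these scalings. Cd8a, the co-receptor of CD8 T cells, differed by -0.052 (SE 0.16), and Klrd1 and Klrc1, which encode the CD94 and NKG2A chains that bind Qa-1, by 0.25 (SE 0.17) and 0.087 (SE 0.16). Klrc2 differed by -0.31 (SE 0.30). Of 8 class II genes 5 were lower, where 45.4% of all probe sets were. Their median was -0.14, or -0.017 with Stat2 KO replicate 1 left out and -0.24 with replicate 2 left out. The class II chain genes H2-Aa, H2-Ab1 and H2-Eb1 differed by -0.85 (SE 0.22), -0.49 (SE 0.16) and -0.25 (SE 0.17), and H2-DMb1, a chain of the DM peptide exchanger, by -0.63 (SE 0.16), with limma adjusted p = 0.732 for all but H2-Eb1 at 0.771. Ciita, H2-Oa and H2-Ob were higher, by 0.11, 0.12 and 0.16. The mean of every measured class II gene and of every measured receptor gene lay below 6.72 in both hosts. That is the 95th percentile of olfactory receptor probe sets, so levels above background were not shown for them.

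Class I chains are made by nearly all nucleated cells, and markers of some host cell types were lower beside them. Of all probe sets, 45.4% had a lower mean in Stat2 KO hosts. Of 11 measured macrophage and monocyte markers 10 had a lower mean in Stat2 KO hosts, with a median of -0.32, and their linear values summed to between 945 and 1089 in Stat2 KO hosts, against 1202 to 1518 in WT hosts. C1qb, a subunit of complement C1q, Ms4a7, Cd68 and C1qc differed by -0.95 (SE 0.17), -0.83 (SE 0.21), -0.61 (SE 0.17) and -0.49 (SE 0.15). Adgre1, Fcgr1, Mrc1 and Cd14 differed by -0.21, -0.10, -0.038 and 0.057, with groups that overlapped. The means of Ms4a7, C1qc, Adgre1, Fcgr1 and Cd14 lay below 6.72, the 95th percentile of olfactory receptor probe sets, in both hosts. Of 5 markers of all leukocytes 4 were lower, with summed values from 286 to 319 in Stat2 KO hosts, against 352 to 375 in WT hosts, and Cd53, Laptm5, Ptprc and Cd52 at -0.41, -0.41, -0.35 and -0.097. Of 7 fibroblast markers 6 were lower, with summed values from 678 to 991 in Stat2 KO hosts, against 1082 to 1210 in WT hosts. Lum, Dcn, Col3a1 and Col1a2 differed by -1.21 (SE 0.44), -0.94, -0.41 and -0.31. The groups overlapped for Lum and Col1a2 but not for Dcn and Col3a1, and for Lum WT replicate 3 lay below Stat2 KO replicate 3. Col1a1 and Pdgfrb differed by -0.48 and -0.11 and Pdgfra by 0.11, with groups that overlapped. The means of Laptm5, Ptprc, Cd52, Lum, Dcn and Pdgfra also lay below 6.72 in both hosts. The fibroblast median was -0.41, or -0.21 with Stat2 KO replicate 2 left out, and the leukocyte median was -0.35, or -0.21 with the same array left out. The part of these cells in the class I values was not tested.

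Summed values of the other marker lists overlapped between the hosts. Of the 10 melanocyte and melanoma markers 9 were lower, where 45.4% of all probe sets were. Their sums ran from 27393 to 37281 in Stat2 KO hosts, against 32152 to 39937 in WT hosts, with a median difference of -0.098. With Stat2 KO replicate 2 left out, 3 of the 10 were lower and the median was 0.077, and 6 of 10 were lower after cyclic loess. Mlana, Pmel, Gpr143 and Tyrp1 differed by -0.26, -0.23, -0.21 and -0.11. Higher means in Stat2 KO hosts were found for 8 of 9 T cell, 4 of 6 NK cell, 6 of 7 dendritic cell, 3 of 4 B cell and 5 of 6 neutrophil markers, with medians between 0.077 and 0.12. The T cell count was 5 of 9 after quantile normalization and 4 of 9 after cyclic loess, where the T cell median was -0.012, and the B cell median was -0.0066 and -0.024 under these scalings. After cyclic loess 3 of 6 neutrophil, 3 of 6 NK cell, 4 of 7 dendritic cell and 2 of 4 B cell markers were higher, with medians of 0.0099 for neutrophils, 0.018 for NK cells and 0.066 for dendritic cells. Of 7 endothelial markers 4 were lower, with a median of -0.028, or 0.046 with Stat2 KO replicate 2 left out. Cd28, a T cell marker, differed by 0.46, Eomes (NK cell) by 0.31 and Xcr1 (dendritic cell) by 0.39. Ms4a1 (B cell) differed by 0.25, S100a8 (neutrophil) by 0.50 and Cdh5 (endothelial) by -0.45. Each had the smallest unadjusted limma p of its list. Among them the groups did not overlap for Cd28, Eomes, Ms4a1 and Cdh5. The mean of Xcr1 and of every measured T cell, NK cell, B cell and neutrophil marker lay below 6.72 in both hosts. That is the 95th percentile of olfactory receptor probe sets, so levels above background were not shown for them. Of all probe sets, 4.98% were separate and lower and 7.30% separate and higher. None of the marker genes had a limma adjusted p under 0.05, and none of the values is at 0 on this scale, where a background level remains.

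**Figure D4:**
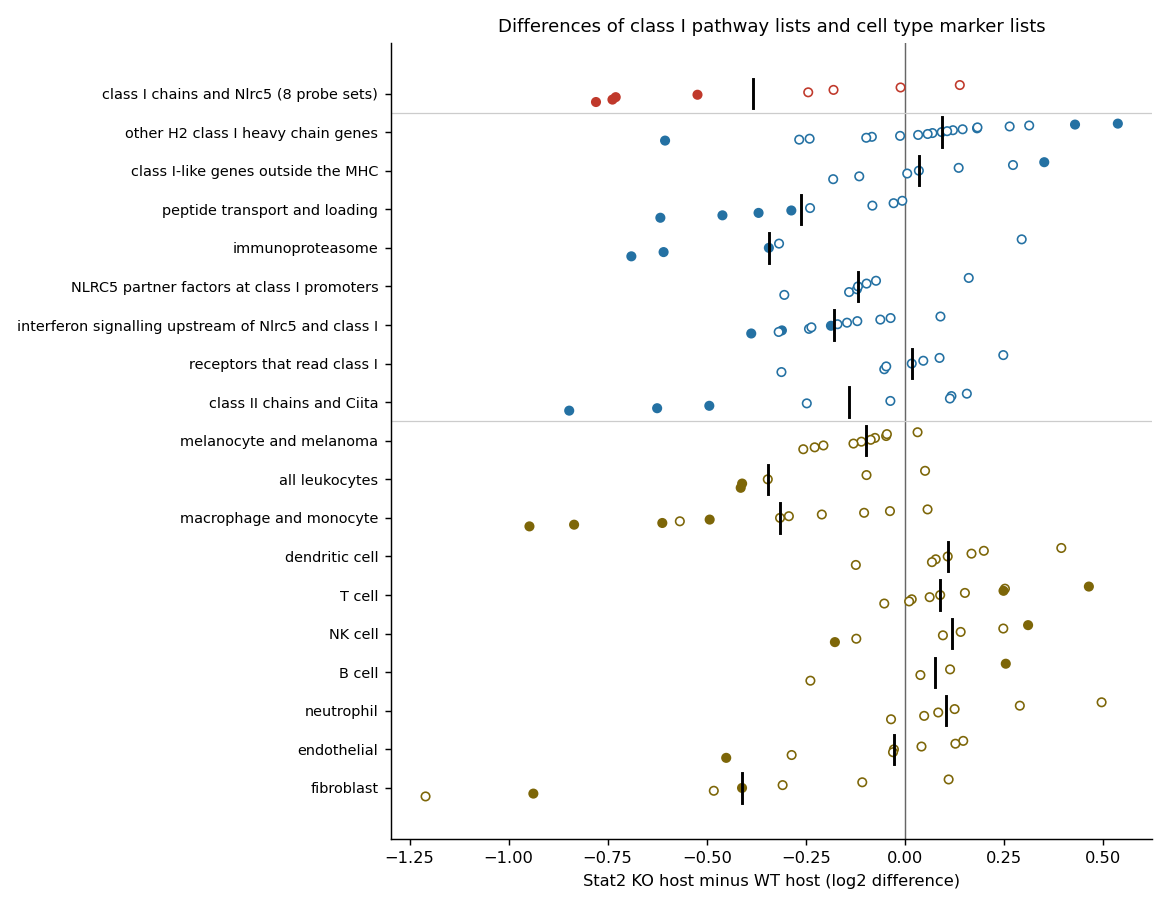
The difference Stat2 KO host minus WT host (log2) of every measured gene in the class I pathway lists (blue) and the cell type marker lists (brown), under the 8 probe sets of the class I chains and Nlrc5 (red), with black bars at each median and filled points where the groups do not overlap. The medians of the class I chains, immunoproteasome, all-leukocyte, macrophage and fibroblast lists lie between -0.41 and -0.32.

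The genes whose levels followed the class I chains and Nlrc5 most closely were found by correlation over the 6 arrays with the mean profile of the 5 genes that have their own probe set. That profile lay at -0.093, -0.27 and -0.35 in Stat2 KO tumours and at 0.21, 0.26 and 0.24 in WT tumours, in replicate order. Among 12833 genes brighter than the median probe set, the closest were Vezf1, Bud31, Pfdn2, Zfpm1 and Jdp2, with Pearson's r from 0.986 to 0.994. Within the groups, after removing each group's mean, r lay between 0.861 and 0.980. Since these genes were picked for high r over the same arrays, the r within groups is no separate check. Jdp2, a bZIP repressor, read 7.13, 6.86 and 6.76 in Stat2 KO hosts, against 7.65, 7.63 and 7.48 in WT hosts, a difference of -0.67 (SE 0.14). The zinc finger genes Zfpm1 and Vezf1 differed by -0.45 and -0.27, the splicing factor gene Bud31 by -0.22 and the prefoldin subunit gene Pfdn2 by -0.13. The 6 arrays fall into 2 host groups and 12833 genes were ranked, so these correlations describe these arrays only.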

How the data were processed

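The table as deposited holds log2 expression, with 1 value per probe set and tumour. The submitters' processing notes name RMA and Affymetrix Expression Console 1.3.1. Probe set coordinates and calls of detection were not used here, so precision rests on the number of arrays. All 41345 probe sets were fitted with limma 3.58.1 in R 4.3.3 (lmFit, eBayes with an intensity trend, 4 residual and 4.169 prior degrees of freedom), as Stat2 KO host minus WT host, two-sided, with Benjamini-Hochberg adjustment over all of them and a threshold of 0.05. SEs and intervals are from this fit. For single values all splits of the 6 arrays gave an exact permutation p, two-sided.

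Gene names are from the platform annotation, which names 1 gene for 23521 probe sets, several for 1814 and none for 16010. A listed gene is represented by its brightest probe set that names it alone. All 7 genes were named with every probe set, and with them the 5 genes most correlated with them. Up to 4 genes of smallest p were named from each of 8 pathway lists. Of the 10 marker lists, the melanocyte, leukocyte, macrophage and fibroblast lists were treated in the same way, and each other list gave 1 gene. The genes, lists and tests were chosen with earlier results of these data known. The fit was tested on simulated data, drawn independently for each probe set. At the adjusted threshold it recovered 45 of 100 true log2 falls of 1 and 96 of 100 falls of 2, and 9 of 150 calls were false. Results under 17 alternatives are given in the closing section.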

Additional observations from a re-analysis of the deposited data

How the results depend on the processing

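The 8 probe sets gave 128 differences under 17 alternatives. Of these, 125 kept their direction and stayed above the adjusted threshold, 3 changed sign, and 0 passed, with limma adjusted p-values from 0.195 to 0.994. The 3 belong to the dimmer H2-Q7 probe set, which ranged from -0.23 to 0.12 when single arrays were left out, namely 0.045 (Stat2 KO replicate 3 left out), 0.073 (WT replicate 1) and 0.12 (WT replicate 2), and the cause was not tested. B2m ranged from -0.88 to -0.70, Nlrc5 from -0.82 to -0.69, H2-K1 from -0.84 to -0.59 and the brighter H2-Q7 probe set from -0.60 to -0.43, each with an unadjusted limma p under 0.05 throughout. With 1 value per gene, 2 of 22180 genes passed, by the brightest probe set as by the mean of probe sets, with adjusted p-values of 0.257 for B2m, 0.195 for Nlrc5 and 0.316 for H2-K1 by the brightest, and fewer features were tested there. The count of probe sets with an unadjusted p under 0.05 was 2766 with all arrays, 1793 to 4627 with single arrays left out (lowest without Stat2 KO replicate 3, highest without Stat2 KO replicate 1), 5912 with array weights and 1385 among probe sets above the median. The replicate numbers were not taken as pairs, since same-numbered tumours deviated together with r of 0.197, 0.081 and -0.0079, and 3 of 6 samples correlated best with their own number. With a replicate block, 0 probe sets passed the adjusted threshold and 3373 had an unadjusted p under 0.05. Without detection calls, levels near those of olfactory receptor probe sets limit the probe sets of H2-D1, H2-T23, H2-M3 and Nlrc5 and the dimmer one of H2-Q7.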
